A study of Mus musculus with 14 samples.

Results

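The genes described here make, bind, read out or remove retinoic acid: Aldh1a1, Aldh1a2, Aldh1a3, Dhrs3, Cyp26b1, Crabp1, Rara, Rarb and Rxrg. They were chosen by symbol, with earlier results on these libraries known, and all 9 were found among the 25229 symbols of the progenitor count table and the 55353 symbols of the postmitotic one. Polyadenylated RNA had been sequenced from cortical layer II/III, dissected from mice at postnatal day 5, and the series asks how the loss of the LIM-homeodomain factor Lhx2 acts on the dendrites of these neurons. Both floxed alleles (Lhx2lox/lox) were carried by every group. In the progenitor experiment an EGFP plasmid (control, n = 4) or a Cre-EGFP plasmid (mutant, n = 4) had been electroporated in utero at E15.5. In the postmitotic experiment EGFP was electroporated in Lhx2lox/lox mice (control, n = 3) or in NexCre/+; Lhx2lox/lox mice (mutant, n = 3), where Cre acts in young excitatory neurons whether or not they took up the plasmid. The labels name no sort for labelled cells after dissection, so the RNA may include that of unlabelled cells. The labels do not say that each library came from its own animal, and p-values then measure only the spread between these libraries.

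Retinoic acid is made from vitamin A. Retinol is oxidised to retinal, and the retinaldehyde dehydrogenases of the Aldh1a family oxidise retinal to retinoic acid, while Dhrs3 reduces retinal back to retinol. Cyp26 enzymes break retinoic acid down, Crabp proteins carry it in the cytoplasm, and in the nucleus it binds receptors of the RAR family, which act as dimers with RXR partners on DNA repeats called retinoic acid response elements. In the developing brain the meninges are a known source of the acid through Aldh1a2.

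A Rarb promoter window is shown first. Rarb is a textbook target of the pathway, and this was the only window of these genes that held a full response element. RefSeq promoters were searched (build GRCm38.p6, from 250 bases before to 50 bases after an annotated start). The search took the half-site AGGTCA or its variants (AGTTCA or GGGTCA, as well as GGTTCA), repeated in the same orientation with 1, 2 or 5 bases between them, on both strands. RefSeq windows were found for 8 of the 9 genes (15 windows), not for Aldh1a3. A match was present in 1 of the 15 windows, against 0.588% of all 32851 windows, and 0.097% of all windows held one with a spacer of 5 bases. The match in Rarb (chr14:16575513-16575529, minus strand) begins 53 bases before the annotated start and reads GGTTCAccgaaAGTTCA, with the half-sites in capitals. This RefSeq start lies inside the gene, whose outermost start at 16819156 had no window and was not searched. A single AGGTCA on either strand was found in 16.3% of all windows and in 2 of the 15, 1 of Rara and the downstream window of Rxrg. The Rarb window (chr14:16575427-16575726, minus strand) and that Rxrg window (chr1:167618015-167618314, plus strand), whose half-site begins 88 bases before the start, are given with capitals for the repeat found in Rarb and for the AGGTCA of Rxrg. Other single half-sites of the variant forms are left in lower case. A match is a string of letters and was not tested as a binding site.
Rarb: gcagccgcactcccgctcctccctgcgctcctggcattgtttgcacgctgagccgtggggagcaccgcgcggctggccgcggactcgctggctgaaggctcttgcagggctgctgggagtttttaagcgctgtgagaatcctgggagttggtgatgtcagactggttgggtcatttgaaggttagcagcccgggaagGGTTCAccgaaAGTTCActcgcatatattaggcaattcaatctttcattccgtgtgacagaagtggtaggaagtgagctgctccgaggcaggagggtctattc
Rxrg: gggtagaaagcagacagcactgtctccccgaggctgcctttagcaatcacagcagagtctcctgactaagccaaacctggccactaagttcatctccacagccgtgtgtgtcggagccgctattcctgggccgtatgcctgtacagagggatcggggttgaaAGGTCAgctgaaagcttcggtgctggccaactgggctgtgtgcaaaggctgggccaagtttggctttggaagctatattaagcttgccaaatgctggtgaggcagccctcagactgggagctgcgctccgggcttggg

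Library totals ran from 21605777 to 29497595 counts. Lhx2 itself ranged from 120 to 139 CPM (counts scaled to the TMM-adjusted library total) across progenitor controls and from 114 to 140 CPM across progenitor mutants, with 143 to 150 CPM in postmitotic controls and 171 to 184 CPM in postmitotic mutants, so the targeted transcript was lower in neither set of libraries labelled mutant. In the postmitotic experiment it was called higher in the libraries labelled mutant (log2 fold change 0.29 ± 0.06, SE), a call kept in 9 of 17 alternatives and lost on leaving out any 1 library other than mutant 1 (0.27 to 0.31). Counts cover whole genes, so a transcript missing just the floxed exons would still be counted. Markers of excitatory and upper-layer neurons were present in every group, and no fixed marker listed in a table was at 0 in all its libraries. Y-linked genes summed to at least 99.4 CPM in progenitor mutants 2, 3 and 4 and to at most 0.0381 CPM in progenitor mutant 1 and all 4 progenitor controls. Progenitor mutants 2, 3 and 4 therefore differ from the controls in this as well as in their label. The postmitotic groups were mixed, with 166, 134 and 0.0463 CPM in controls 1 to 3 and 0, 0 and 141 CPM in mutants 1 to 3. In bulk tissue, fewer cells of a type and less RNA per cell cannot be told apart.

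Per length of exon, Rara was the most abundant of the 9 genes in the controls of both tables. In progenitor controls it had 4.87 ± 0.218 RPKM (CPM divided by exon length in kilobases, SD, n = 4), and 48.4% of tested genes were below that level. The next in order, Dhrs3, had 3.05 ± 0.743 RPKM, and its highest library (3.81) was below the lowest of Rara (4.65). From there down, each neighbour overlapped the next over libraries: Aldh1a2 at 2.72 ± 2.17, Aldh1a1 at 1.45 ± 0.709, Rxrg at 0.810 ± 0.112, Crabp1 at 0.793 ± 0.568, Rarb at 0.580 ± 0.104, Cyp26b1 at 0.394 ± 0.179 and Aldh1a3 at 0.269 ± 0.0948 RPKM. In postmitotic controls the order was Rara (4.03 ± 0.431 RPKM, n = 3), Dhrs3 (3.43 ± 0.598), Aldh1a3 (1.59 ± 0.577), Rxrg (0.649 ± 0.160), Aldh1a1 (0.515 ± 0.129), Crabp1 (0.417 ± 0.0618), Cyp26b1 (0.198 ± 0.0393), Rarb (0.117 ± 0.0227) and Aldh1a2 (0.0902 ± 0.0906). There the libraries did not overlap between Dhrs3 and Aldh1a3, Aldh1a3 and Rxrg, Crabp1 and Cyp26b1, or Cyp26b1 and Rarb. Levels were not tested between the tables, which were counted over different sets of symbols.

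**Figure D1:**
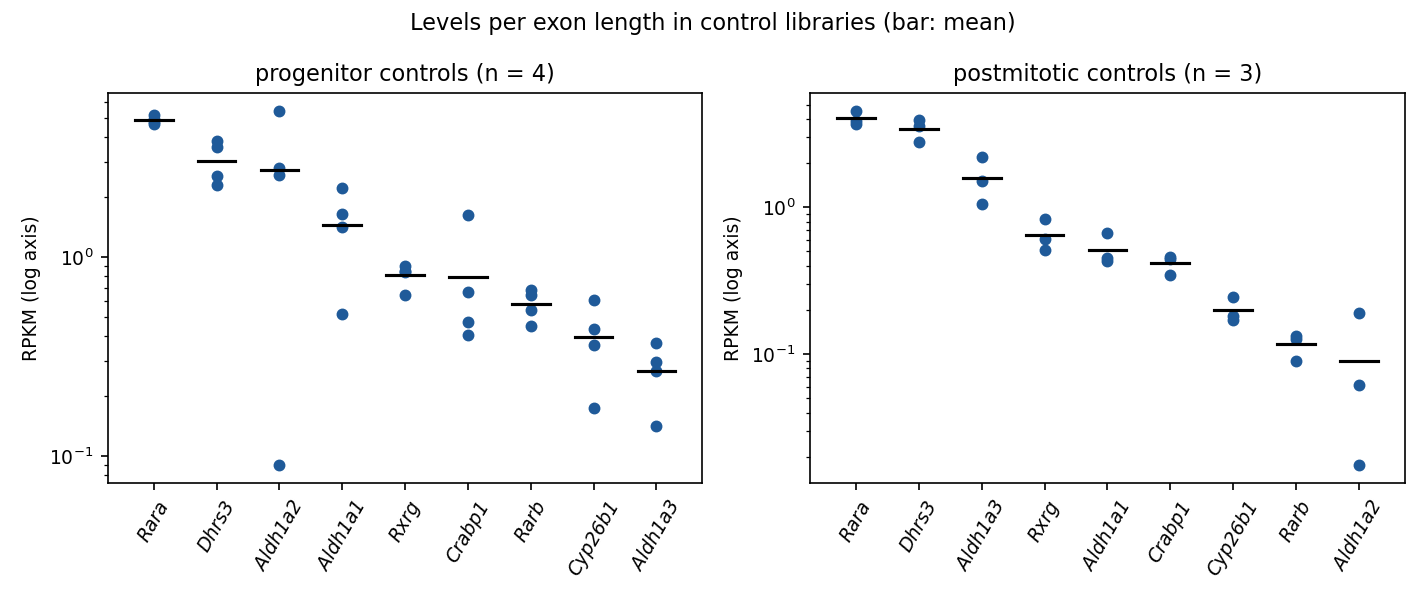
RPKM of the 9 genes (log axis) in the 4 progenitor control libraries and the 3 postmitotic control libraries, each point a library and each bar a mean. Rara is highest in both tables, while Aldh1a2 spans from 0.0899 to 5.40 RPKM over the progenitor controls.

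The synthesis enzymes behaved differently from each other. Aldh1a3 (chromosome 7, 66390890 to 66427517, minus strand, GRCm38/mm10) was higher in mutants of the progenitor experiment. Progenitor controls 1 to 4 had 0.651, 1.37, 1.70 and 1.24 CPM, against 11.4, 11.1, 4.15 and 1.95 CPM for progenitor mutants 1 to 4. Every mutant library was above every control, but mutant 4 exceeded the highest control only narrowly and mutants 1 and 2 were far above the others. The log2 fold change of mutant over control was 2.51 ± 0.60 (SE; 95% interval 1.14 to 3.89). In the postmitotic table Aldh1a3 had 4.88, 7.03 and 10.2 CPM in controls 1 to 3 and 9.89, 31.3 and 29.0 CPM in mutants 1 to 3. Mutants 2 and 3 stood far above all controls, while mutant 1 lay within the control range. The log2 fold change was 1.67 ± 0.58 (SE; 95% interval 0.11 to 3.24), and the gene was not called by the fit over all genes.

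Aldh1a2 (chromosome 9, 71215789 to 71296243, plus strand), the enzyme of the meninges, varied far more between libraries of a group than between groups. It had 0.204, 5.87, 12.2 and 6.33 CPM in progenitor controls 1 to 4 and 13.3, 0.905, 0.415 and 4.11 CPM in progenitor mutants 1 to 4, a log2 fold change of -0.40 ± 1.23 (SE). In the postmitotic table it had 1, 11 and 3 counts in controls 1 to 3 and 0, 97 and 3 counts in mutants 1 to 3, too few to pass the filter on low counts. Nearly all of its postmitotic counts thus came from mutant 2. Aldh1a1 (chromosome 19, 20492715 to 20643465, plus strand), another retinaldehyde dehydrogenase, had 2.57, 8.13, 10.99 and 6.95 CPM in progenitor controls 1 to 4 and 6.61, 2.67, 2.70 and 6.66 CPM in progenitor mutants 1 to 4. The groups overlapped, with a log2 fold change of -0.62 ± 0.49 (SE). Its postmitotic libraries ranged from 2.13 to 3.28 CPM in controls and from 1.34 to 2.94 CPM in mutants (-0.21 ± 0.28). Transcripts of Aldh1a1 share a stretch of 100 identical bases with those of Aldh1a7, its close copy, so some reads of Aldh1a1 may be placed on either. No such stretch between Aldh1a1, Aldh1a2 and Aldh1a3 was longer than 26 bases.

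The level of Aldh1a2 followed a fixed list of 10 meningeal and perivascular fibroblast markers (Col1a1, Col1a2, Col3a1, Dcn, Lum, Slc6a13, Pdgfra, Foxc1, Ptgds and Slc22a6) from library to library. Progenitor controls 1 to 4 had a summed CPM of 155, 456, 772 and 426 for this list, against 821, 240, 227 and 385 for progenitor mutants 1 to 4. Pdgfra alone had 117 CPM in control 1 and 152 and 162 CPM in mutants 2 and 3, most of the sum in each. Over these 8 libraries, log2 of that sum and log2(CPM + 0.1) of Aldh1a2 had Pearson's r = 0.970 (exact two-sided permutation p = 4.96e-05, adjusted p = 0.000893 over 18 relations) and Spearman's rho = 0.976 (exact permutation p = 0.000397, adjusted p = 0.00715). Without the 2 libraries farthest from the median sum, r was 0.951. Aldh1a1 had r = 0.887 (exact permutation p = 0.00528, adjusted p = 0.0334) and rho = 0.738 (exact permutation p = 0.0458, adjusted p = 0.350), and r = 0.963 without the 2 farthest libraries. Aldh1a3 had r = 0.217 (exact permutation p = 0.595, adjusted p = 0.882) and rho = 0.286 (exact permutation p = 0.501, adjusted p = 0.923). Its r turned to -0.74 without the 2 farthest libraries. Each group holds 4 libraries, too few for a correlation within it.

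In the postmitotic table the list summed to 117, 137 and 117 CPM in controls 1 to 3 and to 99.7, 282 and 121 CPM in mutants 1 to 3, so mutant 2 was highest in the list as it was in Aldh1a2. Pdgfra alone had 100, 94.7 and 96.7 CPM in these controls and 77.7, 107 and 102 CPM in these mutants. It was most of the sum in every postmitotic library but mutant 2. Over these 6 libraries Aldh1a2 had r = 0.978 (exact permutation p = 0.00556, adjusted p = 0.0334), with r = 0.919 without the 2 farthest libraries, and rho = 0.829 (exact permutation p = 0.0583, adjusted p = 0.350). Slc6a13, a transporter of meningeal fibroblasts, went from 0.122 to 19.7 CPM over progenitor controls alone. Pdgfra went only from 117 to 136 CPM over these controls and from 152 to 165 CPM over progenitor mutants. It was the only marker of the list whose progenitor groups did not overlap. Of the 18 relations of a gene with this list, these 3 (Aldh1a2 in both tables, Aldh1a1 in the progenitor table) passed an adjusted p of 0.05 for r, and 1 did so for rho. Of the 10 markers, 1 was called higher and 0 lower in progenitor mutants, against 12% higher and 11.4% lower over all genes. In postmitotic mutants 0 of 8 tested were called, against 1.96% of all genes. How much meningeal tissue each dissection held was not measured.

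**Figure D2:**
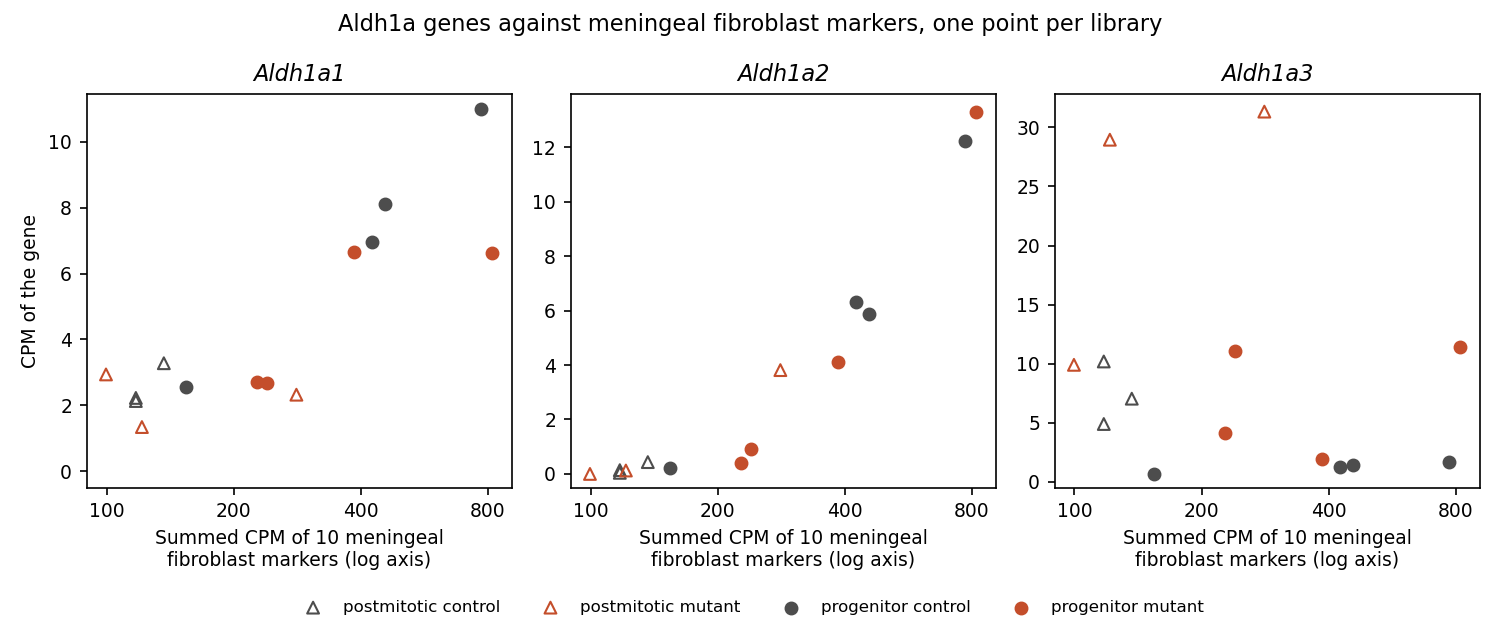
CPM of Aldh1a1, Aldh1a2 and Aldh1a3 against the summed CPM of 10 meningeal fibroblast markers (log axis), 1 point per library, filled for the progenitor and open for the postmitotic table, which were scaled separately. Aldh1a2 climbs with the marker sum in both groups of the progenitor table, while the high Aldh1a3 libraries lie at low and at high sums.

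Dhrs3 (chromosome 4, 144892827 to 144928209, plus strand), which turns retinal back into retinol and is known as a gene that retinoic acid induces, was higher in progenitor mutants. It had 11.2, 7.44, 10.4 and 6.74 CPM in controls 1 to 4 and 13.2, 12.1, 15.2 and 15.4 CPM in mutants 1 to 4, with no overlap. The log2 fold change was 0.65 ± 0.16 (SE; 95% interval 0.29 to 1.002). Postmitotic libraries had 8.13, 11.6 and 10.5 CPM in controls 1 to 3 and 12.4, 9.67 and 10.9 CPM in mutants 1 to 3, which overlapped (0.13 ± 0.15). Cyp26b1 (chromosome 6, 84571414 to 84593908, minus strand), which oxidises retinoic acid to inactive products, had 0.936 to 3.25 CPM in progenitor controls and 1.99 to 4.35 CPM in progenitor mutants (log2 fold change 0.52 ± 0.34, SE). Its postmitotic range was 0.913 to 1.30 CPM in controls and 0.710 to 1.61 CPM in mutants (0.29 ± 0.32). Both comparisons overlapped.

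Crabp1 (chromosome 9, 54764748 to 54773110, plus strand), a cytoplasmic carrier of retinoic acid, was near the limit of these libraries. It had 8, 14, 10 and 38 counts in progenitor controls 1 to 4 and 12, 9, 6 and 4 counts in progenitor mutants 1 to 4. Postmitotic libraries held 7, 9 and 8 counts in controls and 4, 6 and 1 counts in mutants. It passed the filter on low counts in neither table, so no fold change was fitted. The authors' deposited tables give it log2 fold changes of -0.95 (progenitor) and -0.67 (postmitotic), with SEs of 0.60 and 1.23, and call it in neither. The -0.67 comes with a mean of 6.47 normalised counts, near the average of postmitotic replicates 1 and 2. It thus appears to leave out replicate 3 and is not the fold change of all the postmitotic counts above.

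Among the receptors, Rxrg was higher in mutants of the progenitor experiment, while its postmitotic groups overlapped. Rxrg (chromosome 1, 167598384 to 167639623, plus strand) encodes the RXR partner with the most restricted expression in the brain. It had 1.95, 1.49, 2.08 and 1.93 CPM in progenitor controls 1 to 4 and 3.96, 3.28, 3.98 and 3.98 CPM in progenitor mutants 1 to 4. The lowest mutant was well above the highest control, and the fitted level was 2.04-fold that of controls (log2 fold change 1.03 ± 0.16, SE; 95% interval 0.68 to 1.38). In the postmitotic table Rxrg had 1.39, 1.18 and 1.90 CPM in controls 1 to 3 and 1.21, 1.06 and 1.71 CPM in mutants 1 to 3, which overlapped (log2 fold change -0.16 ± 0.27; 95% interval -0.75 to 0.43). The log2 fold change in the postmitotic experiment minus that in the progenitor experiment was -1.19 ± 0.30 (SE; 95% interval -1.82 to -0.56). It was the only 1 of the 9 genes called for this difference by the interaction term fitted over all shared genes, which called 6.94% of 15643 genes (3.1% higher and 3.84% lower in the postmitotic experiment). Since the genes were picked with both contrasts known, this is a description.

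Rarb (chromosome 14, 16430839 to 16819156, minus strand) is the receptor whose promoter window held the match shown above. It had 3.58, 3.39, 2.38 and 2.85 CPM in progenitor controls 1 to 4 and 2.48, 1.94, 2.12 and 2.59 CPM in progenitor mutants 1 to 4. The groups overlapped slightly, and the log2 fold change was -0.42 ± 0.18 (SE; 95% interval -0.81 to -0.02). The postmitotic values were 0.476, 0.671 and 0.694 CPM in controls and 0.643, 1.22 and 0.752 CPM in mutants, from 12 to 31 counts per library (0.51 ± 0.34). Rarb shares 1793 exon bases with Top2b on the opposite strand, at 288 CPM in progenitor controls, and how the counting treated strand is not stated, so its reads may be partly lost to or gained from that gene. Rara (chromosome 11, 98927818 to 98974942, plus strand), the most widely expressed RAR, was the steadiest of the 9 genes: 21.5, 20.3, 20.7 and 22.5 CPM in progenitor controls 1 to 4 and 19.0, 19.1, 17.9 and 18.6 CPM in progenitor mutants 1 to 4. All mutants were below all controls by a small margin (log2 fold change -0.19 ± 0.06, SE). It was not called in the fit described here, but was called lower in 4 of 18 alternative fits. Its postmitotic range was 16.1 to 19.7 CPM in controls and 16.2 to 18.5 CPM in mutants (-0.01 ± 0.11).

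**Figure D3:**
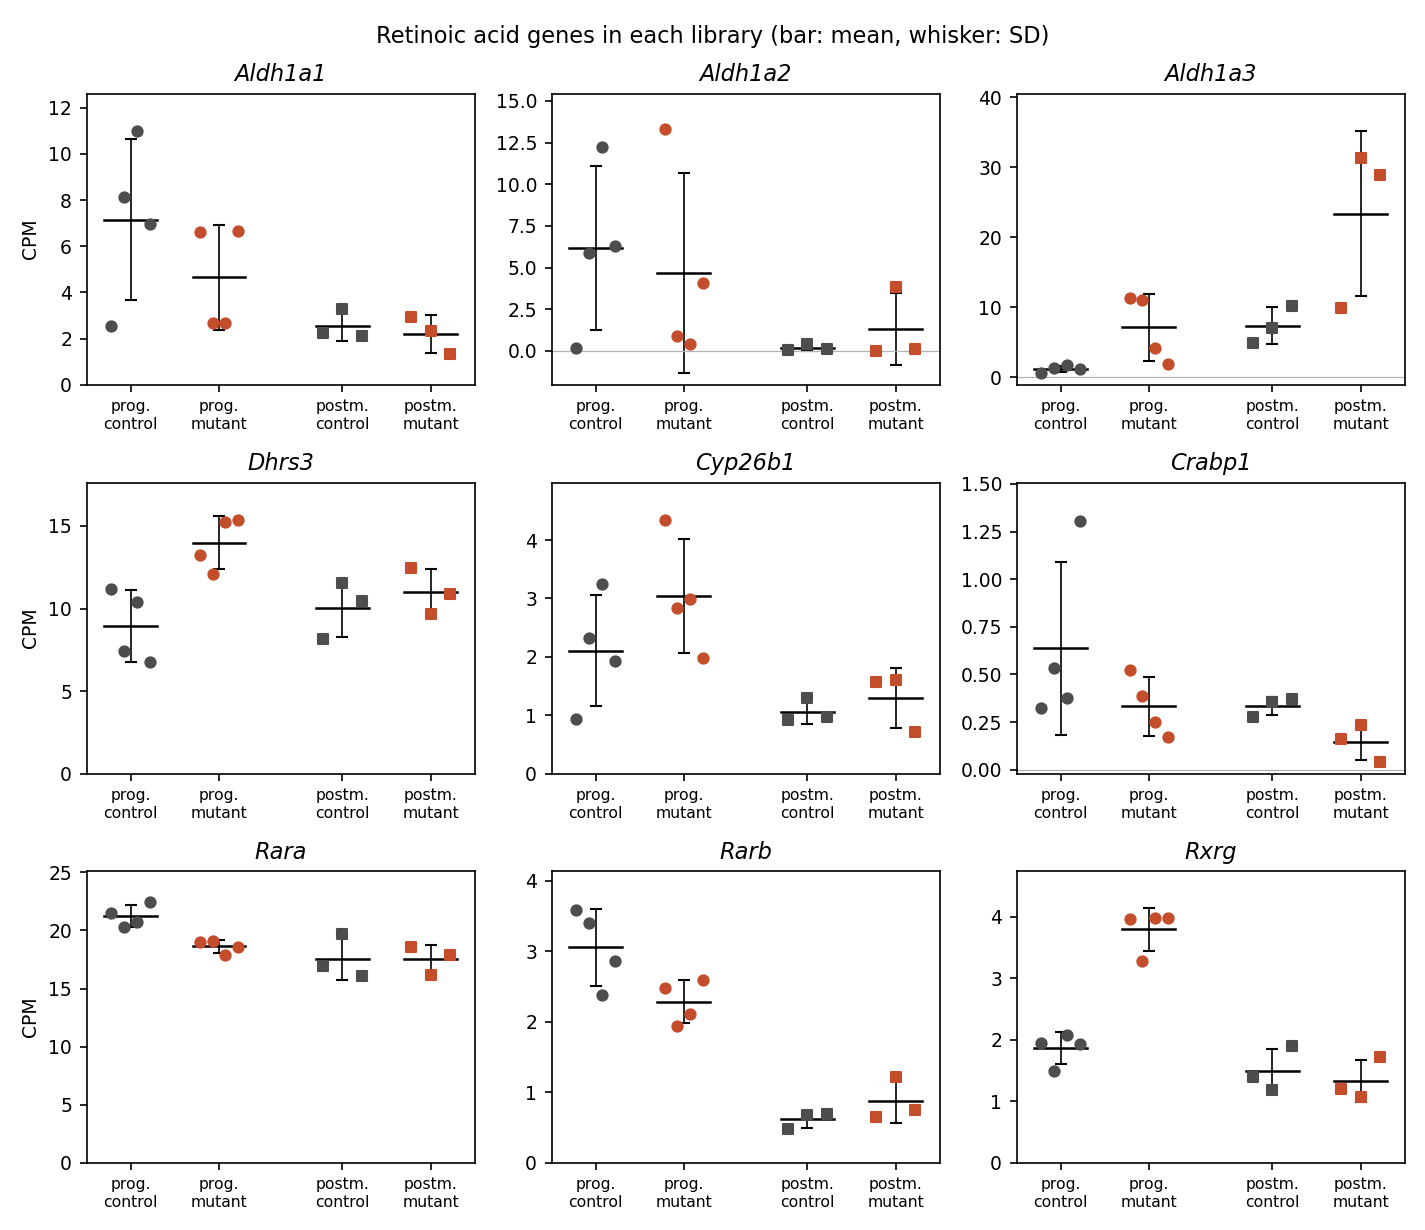
CPM of each gene in every library (points, from replicate 1 at the left), with the mean (bar) and SD (whisker) of each group: progenitor control and mutant (circles, n = 4 each), postmitotic control and mutant (squares, n = 3 each). Rxrg and Dhrs3 separate the progenitor groups, while Aldh1a2 spreads widely within them.

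Counted over the whole fit (edgeR's quasi-likelihood test, adjusted p under 0.05 over all genes), 3 of the 8 genes tested in the progenitor experiment were called, Aldh1a3, Dhrs3 and Rxrg, all higher, and 0 were called lower. At an unadjusted p under 0.05 there were 5, the same 3 and, lower, Rara and Rarb. The share of all genes at an unadjusted p under 0.05 is not given, here or below. Over all 15295 genes tested in the progenitor experiment, 23.4% were called at the adjusted threshold, 12% higher and 11.4% lower. The groups did not overlap for 4 of the 8, the same 3 higher and Rara lower, against 27% of all genes (13.7% higher and 13.3% lower). Nothing is read from these counts, because the contrast is the one by which the genes were picked. Progenitor mutant 1, with Y-linked counts as low as in the controls, stood above every control in all 3 called genes. That follows from the lack of overlap just given and adds nothing to it. With Y-linked CPM as a covariate, Rxrg was still called (log2 fold change 1.09), while Aldh1a3 (3.17) and Dhrs3 (0.58) were not. Cell type markers moved in the same contrast. Of 8 upper-layer markers 5 were called higher and 0 lower (summed CPM 1407 to 1679 in controls, 1651 to 2103 in mutants). Higher calls alone were also made for 2 of 6 tested radial glia and progenitor markers (167 to 228, then 214 to 281), 2 of 8 endothelial and mural markers (267 to 408, then 315 to 461), 1 of 7 oligodendrocyte markers (358 to 429, then 361 to 440) and 1 of 5 tested choroid plexus markers (2.77 to 7.78, then 4.40 to 16.4). Lower calls alone were made for 3 of 8 astrocyte markers (1096 to 1462, then 974 to 1203), 2 of 7 microglial markers (95.4 to 146, then 75.7 to 110), 2 of 8 interneuron markers (275 to 357, then 261 to 306) and 2 of 7 deep-layer and subplate markers (294 to 418, then 245 to 381). Of 7 striatal markers 1 was lower, and their sums did not overlap (134 to 158, then 93.2 to 133). The sums of 5 general excitatory markers did not overlap either (1374 to 1609, then 1027 to 1116), with 1 called higher and 2 lower. In the postmitotic experiment markers were called in 4 lists: upper-layer (2 of 8 lower), deep-layer and subplate (3 of 7 higher), striatal (1 of 7 lower) and general excitatory neurons (2 of 5 higher and 2 lower). Their part in the results was not tested. Leaving out 1 library at a time kept the calls of Rxrg and Dhrs3 in all 8 fits (0.94 to 1.09 and 0.53 to 0.77 on the log2 scale), and ended that of Aldh1a3 without control 1, control 2 or control 4 (2.31, 2.57 and 2.51). In the postmitotic experiment 0 of 7 tested genes were called by edgeR, and 0 by DESeq2 or limma-voom, where edgeR called 1.96% of 17775 genes (0.895% higher and 1.06% lower). The postmitotic groups overlapped for all 7, against 16.4% of genes without overlap (7.98% higher and 8.44% lower). At an unadjusted p under 0.05 there was 1, Aldh1a3, which was called higher when mutant 1, its lowest mutant library, was left out (log2 fold change 2.04). The authors' deposited tables call the same 3 genes in the progenitor experiment and 0 in the postmitotic one. The deposited postmitotic base means (averages of normalised counts) were 334 for Aldh1a3 and 26.9 for Aldh1a2. These lie near the averages of replicates 1 and 2, not near those of all 6 libraries. The deposited postmitotic result thus appears to leave out replicate 3, and it is not a like comparison with the fit given here.

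**Figure D4:**
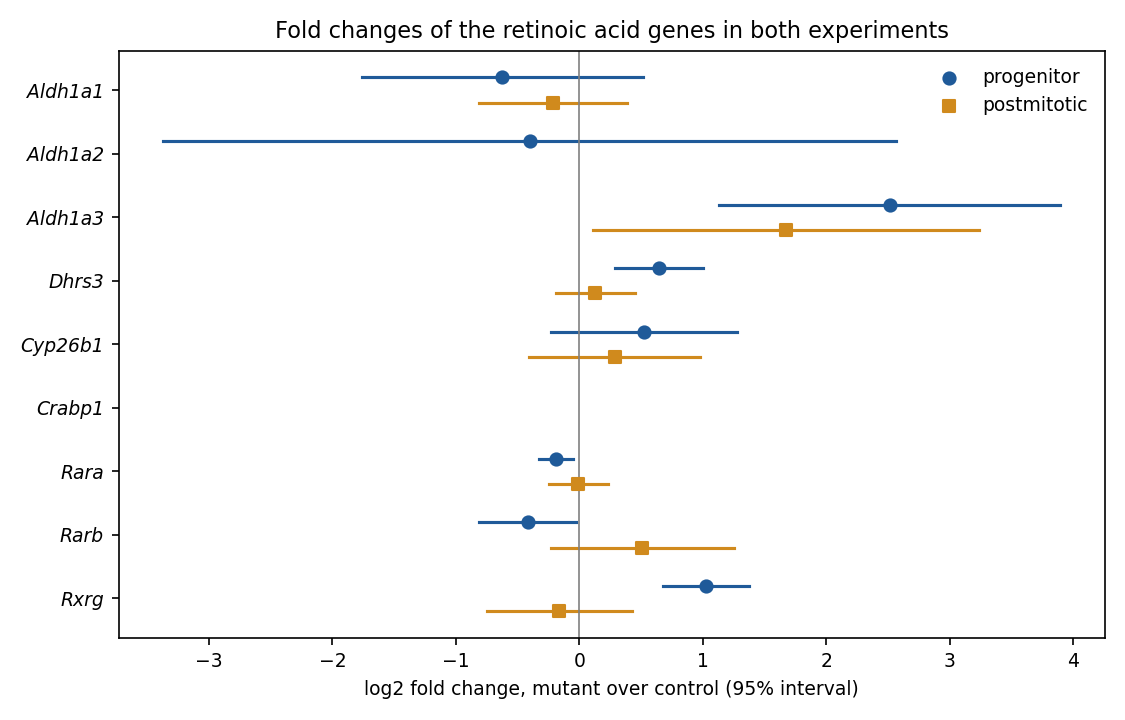
Log2 fold change of mutant over control with its 95% interval for each gene in the progenitor (circles, n = 4 per group) and postmitotic experiment (squares, n = 3 per group). Crabp1 in both tables and Aldh1a2 in the postmitotic table were not fitted. The intervals of Aldh1a3, Dhrs3 and Rxrg in the progenitor experiment lie above 0, and that of Aldh1a2 is the widest. Those of progenitor Rara (-0.33 to -0.05) and Rarb (-0.81 to -0.02) lie below 0. That of postmitotic Aldh1a3 (0.11 to 3.24) lies above 0. The latter 3 were not called.

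The genes with the most similar profile over the 14 libraries were looked up for Aldh1a3 and Rxrg, whose log2 fold change exceeded 1 in an experiment. Likeness was the root mean square difference of log2(CPM + 1), each experiment centred on its own controls, among 14448 genes. The closest to Aldh1a3 were Ntf3, which encodes neurotrophin-3 (difference 0.62, log2 fold changes 1.93 progenitor and 0.79 postmitotic), Fbn2, a fibrillin (0.63, with 1.49 and 0.49), and Vav3, a guanine nucleotide exchange factor (0.65, with 1.19 and 0.87). Aldh1a3's own profile had a root mean square of 1.26, so none of these matched it closely. The closest to Rxrg were 5730480H06Rik (0.14, with 1.86 and 0.02), Upp1, a uridine phosphorylase (0.15, with 1.07 and -0.21), and Trmt13, a tRNA methyltransferase (0.16, with 0.88 and 0.06), against 0.42 for Rxrg's own profile. Rxrg ran from 1.06 to 3.98 CPM, where the added 1 shrinks differences between genes of low level. The first match had a progenitor log2 fold change of 1.86 against 1.03 for Rxrg, so a small difference here need not mean a like fold change.

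A list of 46 other genes of retinoid uptake, oxidation, degradation, binding, reception and response was compiled from their known roles. Of the 30 tested in the progenitor experiment, 0 were called higher and 2 lower, against 12% higher and 11.4% lower over all genes, with a median log2 fold change of -0.02 beside 0.00 over all genes tested. Of the 29 tested in the postmitotic experiment, 0 were called in either direction by edgeR's quasi-likelihood test, against 1.96% of all genes, with a median of 0.07 beside -0.00 over all genes tested. At an unadjusted p under 0.05 there were 3 in the postmitotic experiment, Nrgn, Rai14 and Rarg. The share of all genes at that threshold is not given, so nothing is read from this count. DESeq2 called Rai14 higher and Nrgn lower, where it called 2.92% of all genes.

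The 2 called genes were Nrgn and Rdh13. Nrgn encodes neurogranin, a calmodulin-binding protein of forebrain neurons that is sensitive to retinoid status. It had 1637, 1198, 1263 and 1298 CPM in progenitor controls 1 to 4 and 893, 967, 1019 and 985 CPM in progenitor mutants 1 to 4. It fell by 0.48 ± 0.09 on the log2 scale (SE; Benjamini-Hochberg adjusted p = 0.00392 by edgeR's quasi-likelihood test), and all 4 mutants were below all 4 controls. Rdh13, a mitochondrial enzyme that reduces retinal, had 61.4, 57.6, 58.7 and 57.0 CPM in progenitor controls 1 to 4 and 50.6, 49.9, 39.8 and 38.6 CPM in progenitor mutants 1 to 4. It fell by 0.39 ± 0.09 (adjusted p = 0.00922, same edgeR test), again without overlap, and that call was lost with Y-linked CPM as a covariate. In the postmitotic experiment Nrgn had a log2 fold change of -0.30 ± 0.09 (adjusted p = 0.138, same edgeR test) and Rdh13 one of 0.01 ± 0.08 (adjusted p = 0.982).

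None of the other receptors was called in either experiment. Rxrb, the most abundant of them per length (19.3 ± 0.554 RPKM in progenitor controls and 17.6 ± 1.47 in postmitotic controls), had log2 fold changes of -0.09 ± 0.05 and 0.11 ± 0.08. Rxra had -0.06 ± 0.11 and 0.19 ± 0.13, and Rarg -0.08 ± 0.08 and -0.29 ± 0.13. Rdh10, the main dehydrogenase that turns retinol into retinal in embryos, had -0.11 ± 0.12 and -0.05 ± 0.13, and Crabp2, which delivers retinoic acid to nuclear receptors, had -0.34 ± 0.52 and 0.08 ± 0.32. The other Cyp26 enzymes were barely detected, with at most 4 counts of Cyp26a1 and at most 1 count of Cyp26c1 in any library. Ttr, a partner of the retinol carrier Rbp4 in plasma and also a choroid plexus marker, had 5, 11 and 1724 counts in postmitotic controls 1 to 3 and 8, 14 and 36 counts in postmitotic mutants 1 to 3, and its log2 fold change (-5.07 ± 2.73) was not called. The fixed choroid plexus list summed to 2.02 to 84.8 CPM over the postmitotic controls and to 1.69 to 4.35 CPM over the postmitotic mutants.

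**Figure D5:**
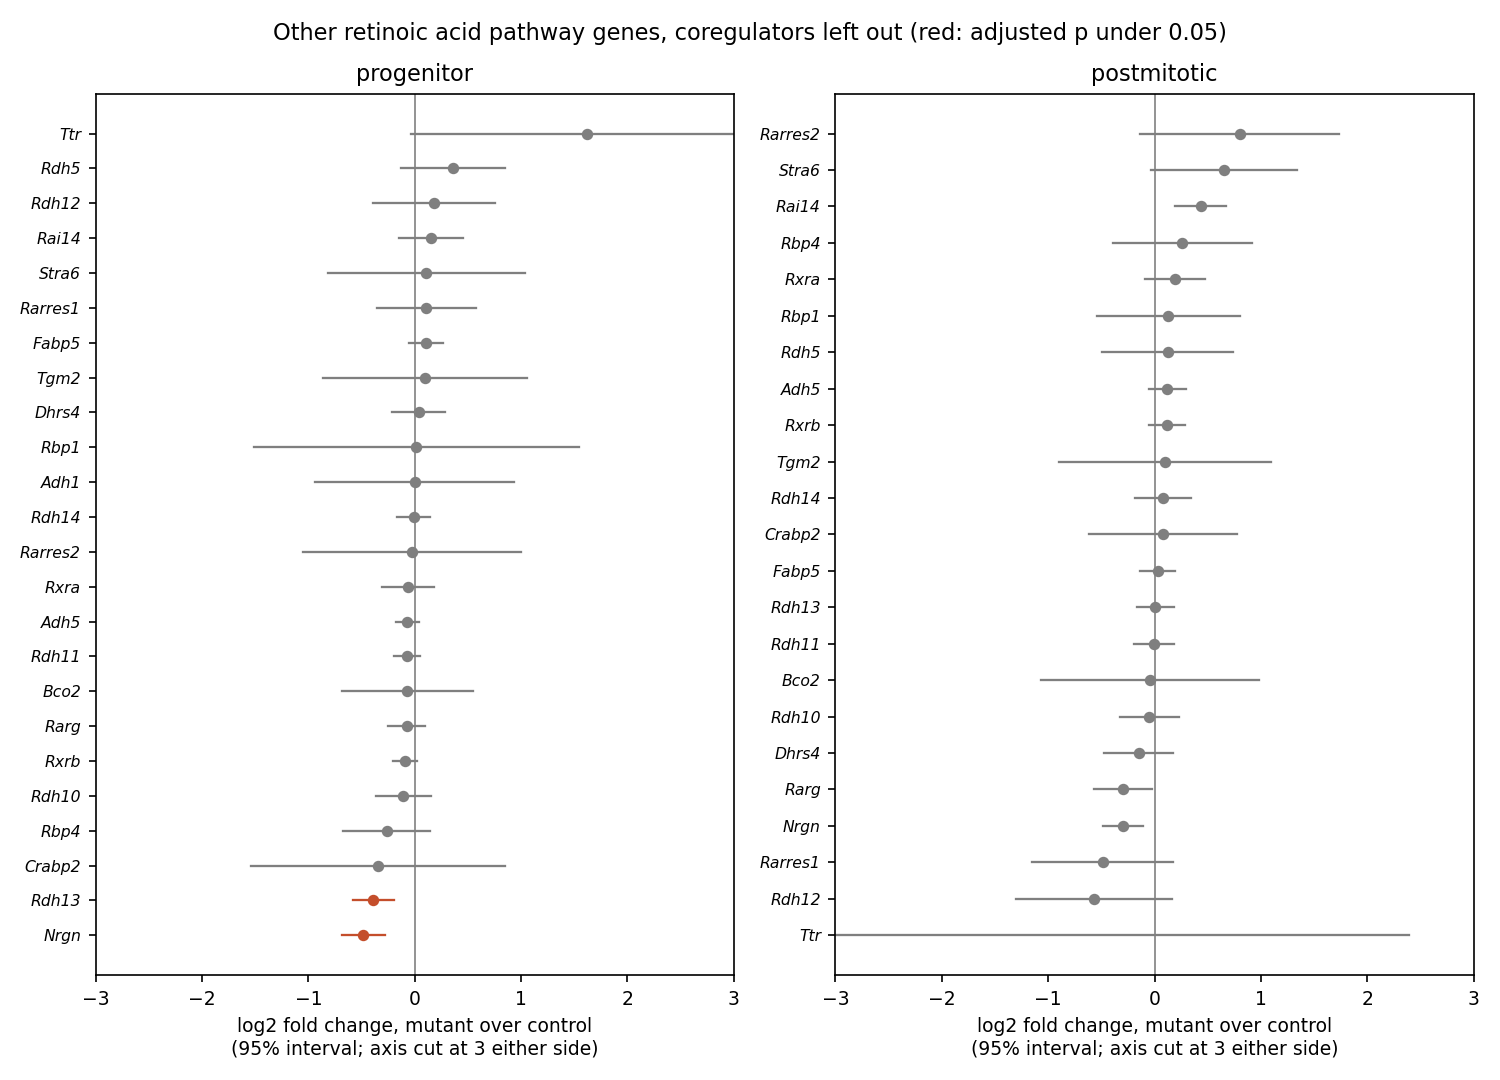
Log2 fold change of mutant over control with its 95% interval for the other pathway genes tested, coregulators left out, in order of size. Nrgn and Rdh13 (red) were called lower in the progenitor experiment. The axis stops at 3 on either side, so that the point of Ttr in the postmitotic experiment is out of view.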

How the data were processed

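The authors deposited gene counts, 1 table per experiment. HISAT2, featureCounts and build mm10 are named, per the submitters' processing notes; their versions, the annotation and the handling of strand are not stated. The authors also deposited DESeq2 tables, per the file headers, with base means (a normalised signal), log2 fold changes, Wald scores and p-values. Adjusted p-values of 0 there were read as missing. The deposited postmitotic fold changes appear, from their base means, to use replicates 1 and 2 only. Deposited tables held 0 columns of other samples.

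Each experiment was fitted alone with edgeR 4.0.16 in R 4.3.3 (filterByExpr, TMM, robust quasi-likelihood F test, Benjamini-Hochberg over all genes, threshold 0.05). Their difference was the interaction in 1 fit of shared symbols. The SE is the log2 fold change over the root of F. CPM use TMM-scaled totals. Most of these genes had under 100 counts in some library. Exon lengths and positions are from GENCODE M21. Alternatives were DESeq2 1.42.0, limma-voom (limma 3.58.1), other scaling, filters and covariates, a replicate block and leaving out libraries. The genes and lists were chosen with earlier results of these data known. Named were the 9 genes, Lhx2, called pathway genes, 7 pathway genes fixed by name, and the 3 profiles most like a gene with a log2 fold change over 1. Rai14, Ttr, Top2b and Aldh1a7 were named after their values were seen. The coregulators are not reported here.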

Additional observations from a re-analysis of the deposited data

Results flagged for a closer look

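Rxrg had 2 values that stand apart. In the progenitor mutants, library 2 (3.28 CPM) lay below the other 3 (3.96 to 3.98 CPM), with a gap of 0.965 of the group's range against a critical value of 0.829 for 4 samples. All 4 were still above every control. Chance gives such a gap in about 1 of 20 groups, and 20 groups of 4 were examined. The log2 fold change of Rxrg also differed between experiments in the interaction term, by -1.19 (postmitotic minus progenitor). Limma-voom, run on the same counts, gave -1.19 as well, which is no separate evidence. Rxrg was picked with both contrasts known, so this difference is a description. The experiments differ in when Cre acts and how it was delivered, in the controls and in the count table. They also differ in how Y-linked counts are spread over control and mutant libraries. These cannot be told apart.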

How the results depend on the processing

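Most values kept their direction and their side of the threshold. With limma-voom, RLE factors, a filter of at least 1 CPM or no robust step, 1 progenitor gene was called lower instead of 0, which was Rara. With Y-linked CPM as a covariate, 1 progenitor gene was called higher instead of 3 (Rxrg remained called) and 1 other pathway gene lower instead of 2 (Nrgn), and the log2 fold change of Aldh1a2 turned to 1.01. Calls over all genes fell from 3577 to 948 in that fit, in which the covariate and the label overlap. With DESeq2, and again with no filter, 1 other pathway gene was called higher and 1 lower in the postmitotic experiment. Those fits called 2.92% and 2.12% of all genes. Same-numbered libraries of a group pair deviated together by correlations of -0.44 to 0.07 in the progenitor and -0.21 to 0.04 in the postmitotic experiment. These give no sign that the numbers pair samples, but cannot exclude it. With the replicate block, Aldh1a3 was no longer called in the progenitor experiment (log2 fold change 2.25) and 1 postmitotic gene was called higher, Aldh1a3 (1.58). Leaving out 1 library at a time gave 0 to 1 other pathway genes called higher in the progenitor experiment (Ttr, without mutant 3), and in the postmitotic experiment 0 to 1 called lower (Nrgn, without control 1) and 0 to 1 of the 9 genes called higher. With the meningeal marker sum as a covariate, chosen after seeing the data, the same 3 genes were called in the progenitor experiment. The causes were not tested. Crabp1, at 4 to 38 progenitor and 1 to 9 postmitotic counts, was too low to be fitted within either experiment.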
